A study of Mus musculus with 6 samples.

Results

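The members described here are 10 glutathione S-transferase genes, out of 18193 genes with a probe set of their own on the array. They were taken as every probe set, 16 of 45101, whose annotation names Gstm1, Gstm2, Gstm3, Gstm4, Gsta2, Gsta3, Gsta4, Gstt1, Gstt2 or Gstp1. Of these, 15 name 1 gene, and 1 names Gsta2 together with Gsta1 and Gm3776. The mu class has 8 probe sets, the alpha class 5, the theta class 2 and the pi class 1. Signals come from 3 whole liver samples of LIGHT transgenic mice (LIGHT Tg) and 3 of wild-type B6 mice (WT), all aged 4 to 8 weeks and all fed the high-fat diet TD88137 for 2 weeks, with 1 Affymetrix array per sample. LIGHT, the product of Tnfsf14, is a ligand of the tumour necrosis factor family. The labels give neither the promoter nor the line of the transgene and no strain for LIGHT Tg, so strain and transgene cannot be told apart. Genotype follows the titles and source names. The description field calls all 6 samples wild-type. The labels do not say that each sample is 1 animal, so p-values cover only the spread among the samples, which may be technical.

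Glutathione S-transferases join the thiol of glutathione to electrophiles, which marks them for export from the cell. The cytosolic enzymes work as dimers, and their classes, named by Greek letters, differ in sequence and in preferred substrate. They are abundant in hepatocytes and belong to the second phase of drug and toxin metabolism. In mouse liver many are inducible through the transcription factor Nrf2 at antioxidant response elements and through the xenobiotic receptors CAR and PXR, and several differ between the sexes.

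The genes lie in tandem arrays, and close paralogs can share probes. In the RefSeq gene order of GRCm38.p6, Gstm3, Gstm2, Gstm1 and Gstm4 are direct protein-coding neighbours on chromosome 3, with Gstm5, Gstm7 and Gstm6 beside them. Gstt1 and Gstt2 are parted only by Gstt4 on chromosome 10, Gsta4 and Gsta1 are neighbours on chromosome 9, and Gsta3 is alone on chromosome 1. In the manufacturer's naming, a probe set ending in _s_at matches transcripts of several genes, and in one ending in _x_at some probes do. RefSeq promoter windows, running from 250 bases before to 50 bases after a gene's start, were matched for 8 of the 10 genes, as 10 windows. Gsta4 and Gstt2 had none matched.

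Promoter windows are shown for the neighbours Gstm2 and Gstm3, which had the largest mu class differences between genotypes, for Gstt1, which was lower in LIGHT Tg, and for Gsta3, which holds an antioxidant response element core. The positions in GRCm38.p6 are chr3:107986371-107986670 for Gstm2, chr3:107969125-107969424 for Gstm3 and chr10:75797682-75797981 for Gstt1, all on the minus strand, and chr1:21240335-21240634 on the plus strand for Gsta3. Each is written 5′ to 3′ along its gene. Capitals mark the longest run of bases shared by the Gstm2 and Gstm3 windows, 14 bases long, and in Gsta3 the antioxidant response element core. The shared run begins 23 bases before the end of the Gstm2 window and 16 before that of Gstm3. It therefore lies after the start of both genes and not before it.
Gstm2: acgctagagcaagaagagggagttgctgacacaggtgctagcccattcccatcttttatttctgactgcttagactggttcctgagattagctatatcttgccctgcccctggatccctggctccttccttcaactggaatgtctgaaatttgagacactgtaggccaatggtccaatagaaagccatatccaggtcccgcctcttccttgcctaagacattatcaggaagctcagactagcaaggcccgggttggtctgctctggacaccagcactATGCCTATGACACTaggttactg
Gstm3: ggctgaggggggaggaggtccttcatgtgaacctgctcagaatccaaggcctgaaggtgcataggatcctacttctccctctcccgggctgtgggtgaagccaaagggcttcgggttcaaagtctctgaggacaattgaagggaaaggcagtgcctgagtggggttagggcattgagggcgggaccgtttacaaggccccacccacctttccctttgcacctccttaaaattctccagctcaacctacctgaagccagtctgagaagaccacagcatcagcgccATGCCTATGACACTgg
Gstt1: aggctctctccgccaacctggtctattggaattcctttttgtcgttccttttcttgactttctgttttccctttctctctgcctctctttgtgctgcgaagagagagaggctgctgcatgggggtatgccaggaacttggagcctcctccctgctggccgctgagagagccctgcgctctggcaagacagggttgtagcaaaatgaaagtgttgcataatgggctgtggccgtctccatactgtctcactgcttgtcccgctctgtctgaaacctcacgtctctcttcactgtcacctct
Gsta3: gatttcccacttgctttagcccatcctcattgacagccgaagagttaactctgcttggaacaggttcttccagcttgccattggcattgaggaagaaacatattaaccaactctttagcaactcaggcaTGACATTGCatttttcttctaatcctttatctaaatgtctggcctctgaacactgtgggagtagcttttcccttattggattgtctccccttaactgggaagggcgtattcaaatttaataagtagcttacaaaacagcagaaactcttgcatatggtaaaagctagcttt
The core searched was TGACNNNGC on both strands. It matched 1 of the 10 windows, in Gsta3 as TGACATTGC beginning 121 bases before the start site, against 12.4% of all 32851 RefSeq windows. The half-site AGGTCA of nuclear receptors matched 1 window, of Gstm1, against 16.3% of all windows. The TATA box TATAAA matched 2, of Gstm1 and Gsta2, against 13.6%. In Gstm1 the match began 30 bases before the start site on the strand of the gene. In Gsta2 it began 246 bases before and lay on the opposite strand, as TTTATA. These matches did not overlap each other, and a match is a description of letters, not a site.

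One feature of the arrays bears on every value below. The arrays are titled 77, 34 and 35 for LIGHT Tg 1, 2 and 3, and 78, 30 and 31 for WT 1, 2 and 3. LIGHT Tg 1 and WT 1, titled 77 and 78 and called the pair here, stood apart from the other 4 on the first principal component, which held 48.0% of the variance. Xist, transcribed from the inactive X chromosome, had signals of 407 in LIGHT Tg 1 and 444 in WT 1, against 7993 and 8594 in the other LIGHT Tg and 9714 and 9201 in the other WT arrays at the brightest probe set. The Y-linked gene Eif2s3y had 1272 in LIGHT Tg 1 and 1037 in WT 1, and at most 2.82 on the other 4. The labels do not say what the title numbers mean, so sex cannot be told apart from anything else the pair shares. Since the pair holds 1 array of each genotype, each member difference is given over 6 arrays, with the title-number set as a block, and within each set. For other genes the values within each set are mostly not given. Tnfsf14 itself had 55.7, 19.3 and 26.7 in LIGHT Tg and 7.7, 11.9 and 7.43 in WT at the brighter of 2 probe sets. That log2 difference was 1.80 ± 0.594 (limma adjusted p with no filter 0.423, and 0.176 with the block). At the other probe set LIGHT Tg had 2.3, 3.1 and 5.6, against 4.25, 3.75 and 7.83 in WT. Both were below the signal filter.

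Across the 6 arrays the mu class genes Gstm2 and Gstm3 and the theta class gene Gstt2 had higher signals in every LIGHT Tg liver than in every WT liver, while Gstt1 and Gsta3 averaged lower in LIGHT Tg. Gstm2, 1.97-fold higher, and Gstt1, 1.71-fold lower, passed 5% FDR with the title-number set in the fit and not without it. The mu class differences were larger in the pair than in the other 4 arrays at every probe set of the class. All 16 probe sets were bright enough to be tested, with mean levels at or above the 74.9th percentile of the array.

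In the fit over 6 arrays without a block (limma, two-sided, Benjamini-Hochberg adjusted over 22519 probe sets), none of the 16 passed 5% FDR, where 1.17% of all probe sets tested did (0.715% higher and 0.457% lower in LIGHT Tg). At an unadjusted p below 0.05 there were 7 of the 16, against 11% of all tested. With the title-number set as a block 2 of the 16 passed, against 6.47% of all tested, 1 higher (3.26% of all) and 1 lower (3.21% of all). In the arrays titled 30 to 35 alone, Gstm2 and Gstt1 also passed, against 4.25% of all (2.22% higher and 2.02% lower). These arrays are part of the blocked fit as well, so the 2 results are not independent. The groups did not overlap at 4 of the 16, all higher in LIGHT Tg, against 8.17% of all probe sets tested that lay apart in that direction. None lay apart with LIGHT Tg lower, against 9.19% of all. The median log2 difference was 0.15 over the 16 and -0.01 over all probe sets tested. The median absolute difference was 0.45 over the 16 and 0.21 over all tested.

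**Figure D1:**
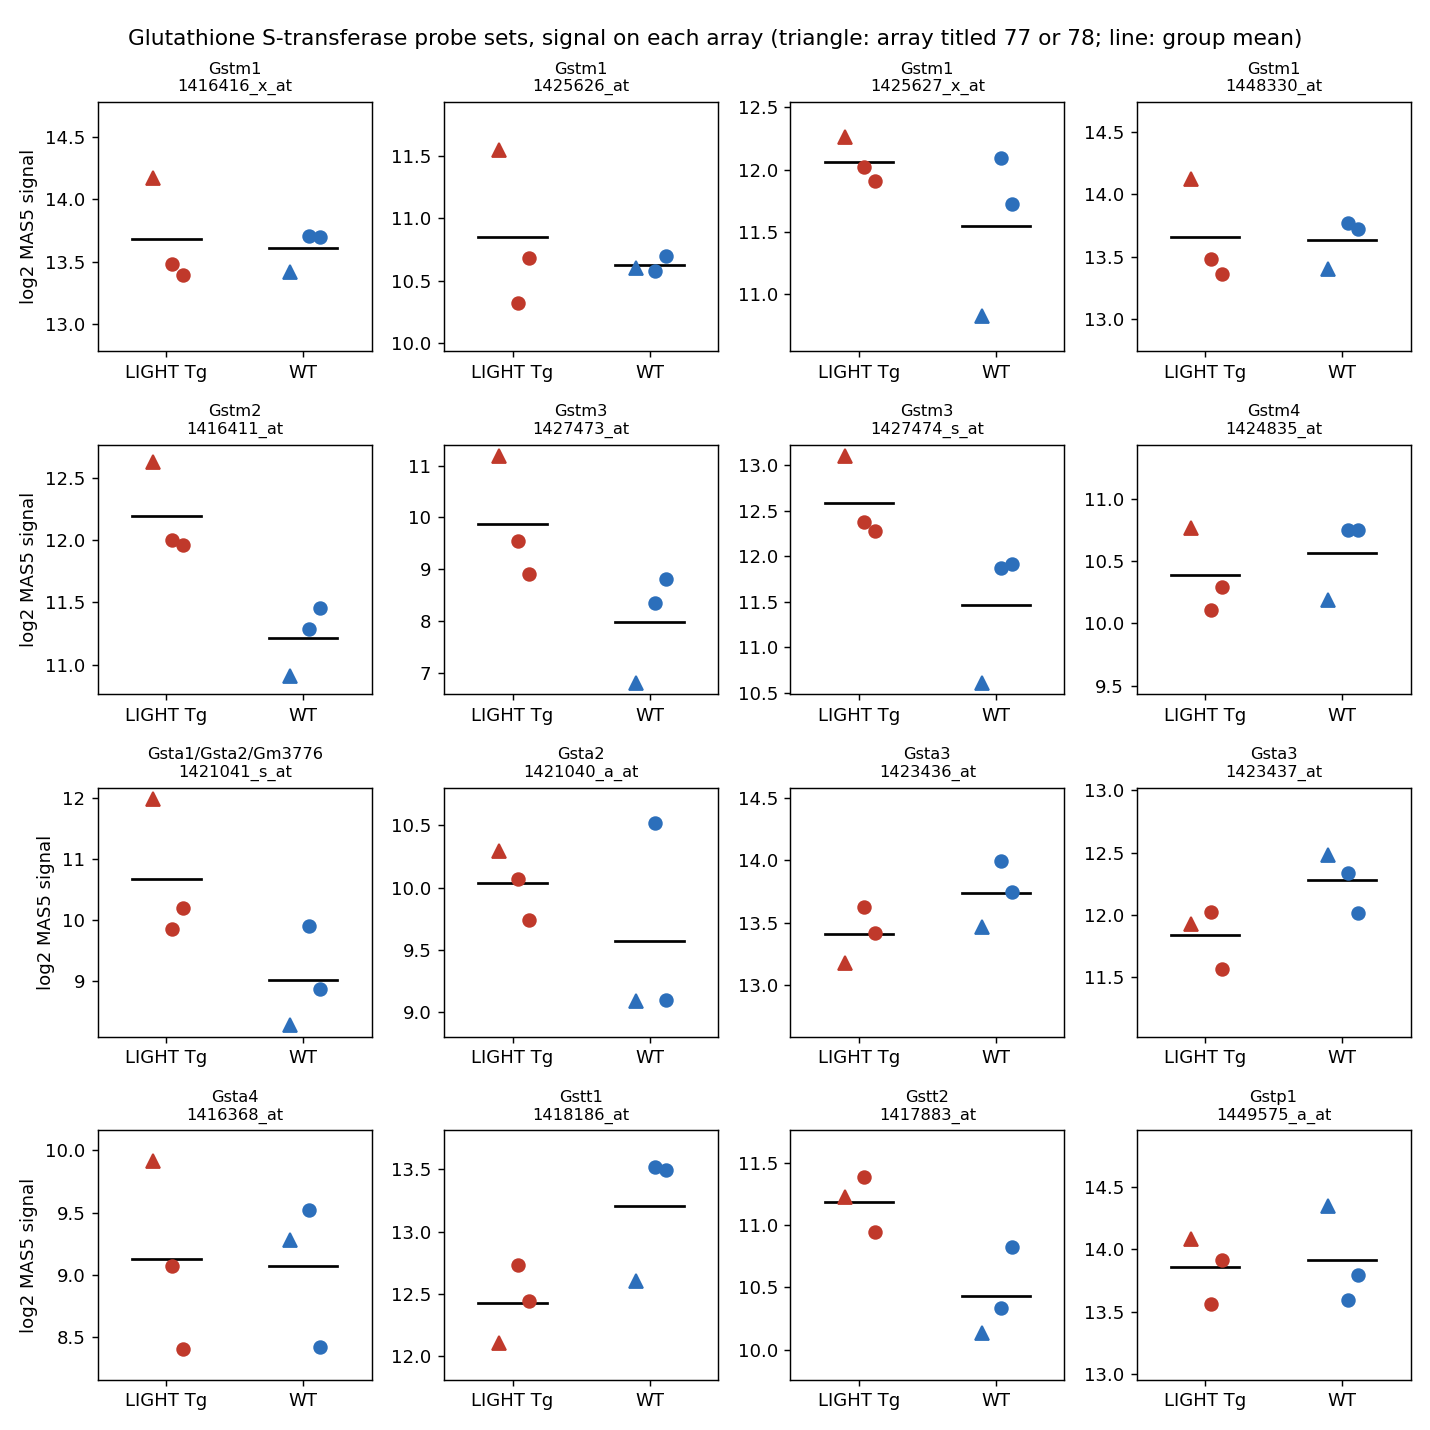
log2 MAS5 signal of each of the 16 probe sets, with LIGHT Tg on the left and WT on the right of each panel. Points are single arrays, triangles mark LIGHT Tg 1 and WT 1 (titled 77 and 78), and the line is the group mean of 3 arrays. All LIGHT Tg points lie above all WT points at Gstm2, at both Gstm3 probe sets and at Gstt2.

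Gstm2 encodes a mu class enzyme. Its probe set, 1416411_at, had signals of 6312, 4091 and 3977 in LIGHT Tg 1, 2 and 3, against 1922, 2495 and 2805 in WT 1, 2 and 3. The groups did not overlap, LIGHT Tg 1 was the highest array and WT 1 the lowest. The means were 4793 ± 1316 in LIGHT Tg and 2407 ± 448 in WT (SD, n = 3 each), a log2 difference of 0.98 ± 0.23 (SE), or 1.97-fold. The limma adjusted p was 0.128 over 6 arrays without a block, 0.0434 with the block (95% interval 0.47 to 1.48) and 0.0476 in the arrays titled 30 to 35 alone. The log2 difference was 1.72 in the pair and 0.61 in the other 4 arrays, larger in the pair by 1.11. The blocked fit takes 1 genotype difference for both sets, so its interval rests on that assumption. The call with the block rests on all of the arrays titled 30 to 35: leaving out any 1 of these 4 in the blocked fit gave an adjusted p between 0.0683 and 0.133, with a log2 difference between 1.03 and 1.13.

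Gstm3, the gene next to Gstm2 and of the same class, had 2 probe sets that put the 6 arrays in the same order. At 1427474_s_at the signals were 8774, 5318 and 4951 in LIGHT Tg 1 to 3, against 1564, 3751 and 3859.8 in WT 1 to 3. At 1427473_at they were 2332, 748 and 482 in LIGHT Tg, against 112, 323 and 450.0 in WT. Both were highest in LIGHT Tg 1 and lowest in WT 1, and neither overlapped between the groups. The log2 differences were 1.12 ± 0.387 (limma adjusted p = 0.326, and 0.133 with the block) at 1427474_s_at and 1.90 ± 0.693 (limma adjusted p = 0.358, and 0.162 with the block) at 1427473_at, so neither passed. The s_at suffix of the brighter one means that its probes can also bind transcripts of paralogs.

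The Gstm3 difference was far larger in the pair than in the other arrays. At 1427474_s_at it was 2.49 in the pair and 0.43 in the other 4 on the log2 scale, and at 1427473_at it was 4.38 and 0.65. The test of that change in difference (limma, genotype by title-number set) gave 2.06 ± 0.177 with an adjusted p of 0.0438 for 1427474_s_at, the 1 of the 16 that passed, against 0.0666% of all probe sets tested (0.0533% with the larger difference in the pair). The pair has 1 array per genotype and no spread of its own, so the test assumes that these arrays vary like the other 4, and the adjusted p was 0.209 with no filter on low signals and 0.0553 after quantile normalization. For 1427473_at it was 3.73 ± 0.47 with an adjusted p of 0.0759.

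Gstm1, an abundant mu class transferase of mouse liver, passed at none of its 4 probe sets. Its brightest probe sets, 1416416_x_at and 1448330_at, had 18485 and 17814 in LIGHT Tg 1, against 10918 and 10831 in WT 1. In the other arrays the order was the opposite: at 1448330_at LIGHT Tg 2 and 3 had 11457 and 10548, against 13946 and 13531 in WT 2 and 3. At 1416416_x_at LIGHT Tg 2 and 3 had 11448 and 10734, against 13339.8 and 13291 in WT 2 and 3. For 1448330_at the log2 difference was 0.72 within the pair and -0.32 within the other 4 arrays, and for 1416416_x_at it was 0.76 and -0.26. The limma adjusted p of the difference between sets was 0.0775 and 0.0759, so neither passed. Over 6 arrays the log2 differences were 0.02 ± 0.212 and 0.08 ± 0.214, with 95% intervals in the blocked fit of -0.43 to 0.48 and -0.37 to 0.52.

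The other Gstm1 probe sets also had the larger difference in the pair. At 1425627_x_at LIGHT Tg had 4904, 4164 and 3838, against 1816, 4372 and 3381 in WT, where WT 1 was the lowest array and the other 5 lay between 3381 and 4904. At 1425626_at LIGHT Tg had 3002, 1278 and 1640.0, against 1556, 1527 and 1657 in WT, and only LIGHT Tg 1 stood above the rest. The log2 differences over 6 arrays were 0.52 ± 0.311 and 0.23 ± 0.302 (limma adjusted p = 0.657 and 0.905, and 0.315 and 0.614 with the block). In the pair they were 1.43 and 0.95, and in the other 4 arrays 0.06 and -0.14. Gstm4, the remaining mu class member, had 1737, 1103 and 1255 in LIGHT Tg, against 1169, 1724 and 1727 in WT, higher in LIGHT Tg in the pair (0.57 on the log2 scale) and lower in the other 4 (-0.55). Its log2 difference over 6 arrays was -0.18 ± 0.242 (limma adjusted p = 0.908, and 0.695 with the block).

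**Figure D2:**
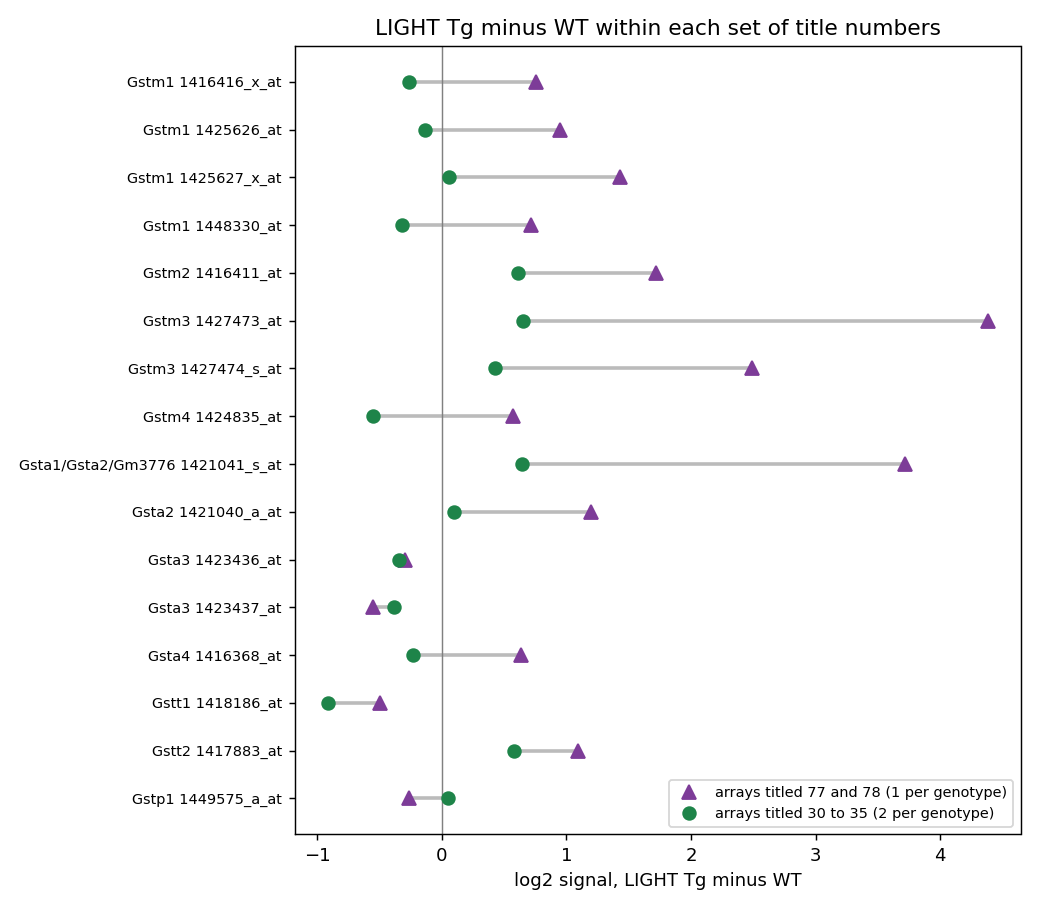
Difference in log2 signal, LIGHT Tg minus WT, at each of the 16 probe sets, within the arrays titled 77 and 78 (triangles, 1 array per genotype) and within the arrays titled 30 to 35 (circles, 2 arrays per genotype). The triangles lie to the right of the circles at 14 of 16 probe sets, with the widest gaps at Gstm3 and at the probe set shared by Gsta1, Gsta2 and Gm3776.

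Over all 16 probe sets the LIGHT Tg minus WT difference was larger in the pair than in the other arrays at 14, against 51.3% of all probe sets tested. The median log2 difference of the 16 was 0.85 in the pair and -0.04 in the other 4, while over all probe sets tested it was -0.01 and -0.02. An unadjusted p below 0.05 for the difference between sets was reached by 9 of the 16, against 11% of all tested. LIGHT Tg 1 was the highest of the 6 arrays at 10 of the 16 (20.6% of all tested) and WT 1 the lowest at 7 (23.5% of all tested). Both held at 5 probe sets, 1425627_x_at of Gstm1, 1416411_at of Gstm2, both of Gstm3 and 1421041_s_at, against 2.92% of all tested. Mu class probe sets may bind each other's transcripts, so these 16 are not independent measurements. Their choice with earlier results known also bears on these shares.

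In the alpha class no probe set passed, with or without the block. The probe set 1421041_s_at, shared by Gsta1, Gsta2 and Gm3776, had 4075, 927 and 1178 in LIGHT Tg, against 309.8, 955 and 469 in WT. LIGHT Tg 1 was more than 3-fold above every other array, and the remaining LIGHT Tg and WT values overlapped. Its log2 difference was 1.67 ± 0.621 (limma adjusted p = 0.37, and 0.159 with the block), with 3.72 in the pair and 0.64 in the other 4. At 1421040_a_at, annotated to Gsta2 alone, LIGHT Tg had 1255, 1076 and 854, against 546, 1464 and 548 in WT, with WT 2 the highest array. The log2 difference was 0.47 ± 0.398 (limma adjusted p = 0.798, and 0.524 with the block), with 1.20 in the pair and 0.10 in the other 4. Gsta1 and Gsta2 enzymes of the mouse are the inducible alpha class forms.

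Gsta3, the constitutive alpha class enzyme that protects mice from aflatoxin by conjugating its epoxide, averaged lower in LIGHT Tg at both probe sets. At 1423436_at LIGHT Tg had 9254, 12667 and 10941, against 11336, 16314 and 13733 in WT, and at 1423437_at LIGHT Tg had 3904, 4172 and 3026, against 5718, 5180.1 and 4140.4 in WT. The groups overlapped at both, since LIGHT Tg 2 lay above WT 1 at the first and just above WT 3 at the second. The log2 differences were -0.33 ± 0.172 (limma adjusted p = 0.58, and 0.0877 with the block) and -0.44 ± 0.183 (limma adjusted p = 0.444, and 0.141 with the block), so neither passed. They were nearly alike between sets, with -0.29 in the pair and -0.35 in the other 4 at 1423436_at, and -0.55 and -0.38 at 1423437_at. Gsta4, whose enzyme conjugates 4-hydroxynonenal from lipid peroxidation, had 963, 538 and 339.7 in LIGHT Tg, against 620.3, 734 and 343 in WT. Its groups overlapped throughout, with a log2 difference of 0.06 ± 0.436 (limma adjusted p = 0.992, and 0.943 with the block). The difference was 0.63 in the pair and -0.23 in the other 4.

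Of the theta class genes, near neighbours on chromosome 10, Gstt1 fell in the blocked fit and Gstt2 did not pass. Gstt1, whose enzyme acts on small halogenated hydrocarbons, gave signals of 4417, 6816 and 5564 in LIGHT Tg livers 1, 2 and 3, against 6223, 11703 and 11539 in WT livers 1, 2 and 3. Within each set every LIGHT Tg array was below every WT array, and the groups overlapped over 6 arrays only because WT 1 lay below LIGHT Tg 2. The means were 5599 ± 1199.9 in LIGHT Tg and 9822 ± 3117 in WT (SD, n = 3 each). Gstt1 fell by 0.78 ± 0.12 on the log2 scale in the blocked fit (SE, limma adjusted p = 0.0127, 95% interval -1.06 to -0.49). The limma adjusted p was 0.347 without the block and 0.0139 in the arrays titled 30 to 35 alone. On the log2 scale the difference was -0.49 in the pair and -0.92 in the other 4 arrays. Leaving out 1 of these 4 arrays in the blocked fit gave adjusted p-values between 0.0292 and 0.0754, past the threshold in 2 of 4 fits, those without LIGHT Tg 2 and without LIGHT Tg 3.

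Gstt2 had signals of 2397, 2667 and 1964 in LIGHT Tg, against 1125, 1293 and 1810.2 in WT. Every LIGHT Tg array was above every WT array. The means were 2343 ± 355 in LIGHT Tg and 1409 ± 357 in WT (SD, n = 3 each), a log2 difference of 0.75 ± 0.221, or 1.68-fold, with 1.09 in the pair and 0.58 in the other 4. The limma adjusted p was 0.227, and 0.0706 with the block (95% interval 0.29 to 1.21), so it did not pass. Gstp1, the pi class enzyme that is prominent in male mouse liver, had 17379, 12101 and 15477 in LIGHT Tg, against 20819, 12338 and 14226 in WT. Its groups overlapped, and the log2 difference of -0.06 ± 0.218 had a 95% interval of -0.33 to 0.22 in the blocked fit (limma adjusted p = 0.981, and 0.826 with the block). The difference was -0.26 in the pair and 0.05 in the other 4.

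**Figure D3:**
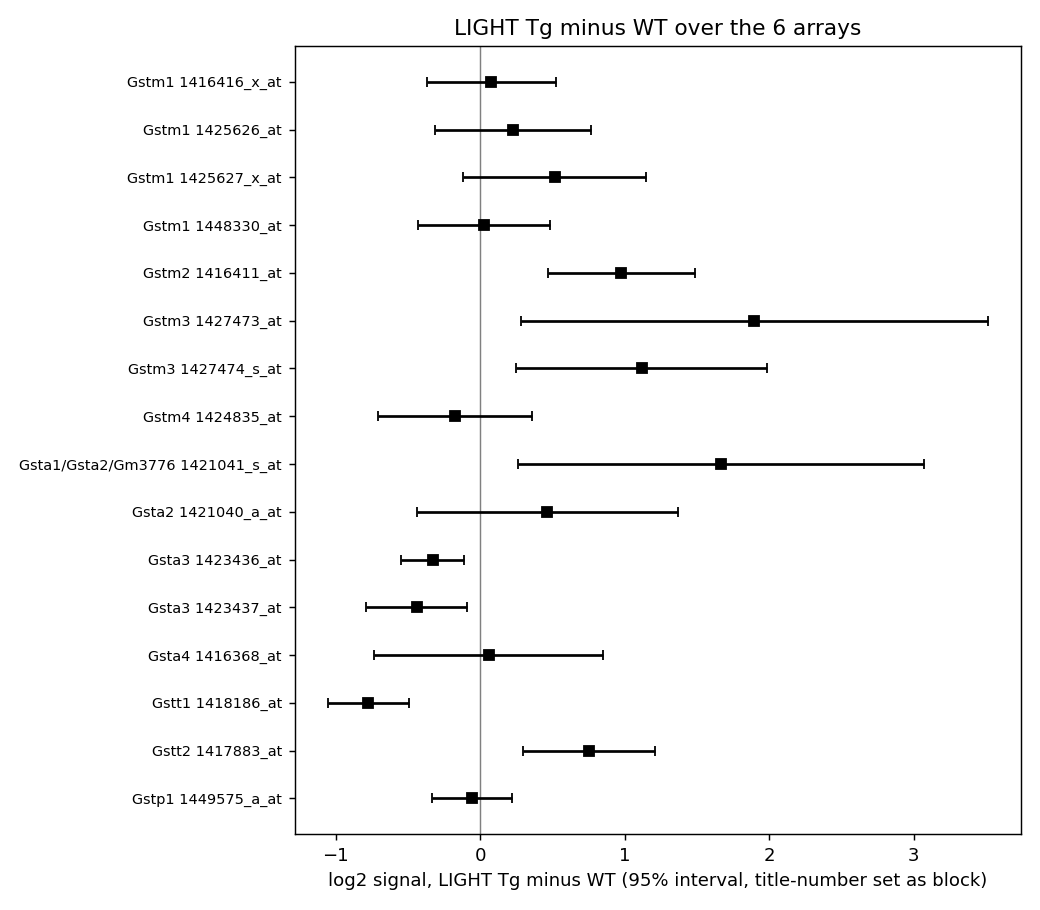
log2 difference, LIGHT Tg minus WT, over the 6 arrays at each of the 16 probe sets, with 95% intervals from the fit with the title-number set as a block. The interval of Gstm2 runs from 0.47 to 1.48 and that of Gstt1 from -1.06 to -0.49, and these are the 2 that passed 5% FDR.

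Differences between the sets themselves, irrespective of genotype, were tested in the blocked fit, where 27.4% of all probe sets passed (11.7% higher and 15.7% lower in the pair). Of the 16 probe sets 3 passed. Gstp1 was higher in the pair by 0.50 ± 0.125 on the log2 scale (limma adjusted p = 0.0263). Gstt1 was lower in the pair by 0.69 (log2 difference -0.69 ± 0.127, limma adjusted p = 0.0101), and 1423436_at of Gsta3 was lower too (-0.37 ± 0.0983, limma adjusted p = 0.0307), while the other Gsta3 probe set had 0.22 ± 0.158 (limma adjusted p = 0.327). No mu class probe set passed, and there the deviations of the pair had opposite signs in the genotypes. LIGHT Tg 1 was above the mean of LIGHT Tg 2 and 3 by 0.77 at 1427474_s_at of Gstm3, and WT 1 was below the mean of WT 2 and 3 (log2 difference -1.28). At Gstm2 the same differences were 0.65 in LIGHT Tg and -0.46 in WT.

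Of 11 other glutathione transferase genes tested, none passed over 6 arrays and 1 rose with the block. Of all probe sets tested, 1.17% passed over 6 arrays and 3.26% rose with the block. The list, like the other lists below, was chosen with earlier results of these data known. Gstt3, the theta class gene beside Gstt1, had 5758, 6309 and 5108 in LIGHT Tg, against 1271, 3917 and 2570.3 in WT, with no overlap. It rose by 1.29 ± 0.29 on the log2 scale in the blocked fit (limma adjusted p = 0.0464, and 0.223 without the block). Gstm5, of the mu class, had a log2 difference of 0.53 ± 0.192, with no overlap between groups. Mitochondrial and peroxisomal Gstk1 had -0.68 ± 0.218, and -0.57 ± 0.208 was found for Gstcd. Signals of Gstk1 were 5259, 4178 and 4062 in LIGHT Tg, against 5214, 8525 and 8339.6 in WT. Its log2 difference was 0.01 within the pair and -1.03 within the other arrays, so the pair showed almost no difference. For Gstcd the log2 difference was -0.46 within the pair and -0.62 within the other arrays. In the blocked fit the limma adjusted p was 0.102 for Gstm5, 0.0944 for Gstk1 and 0.0885 for Gstcd. The median log2 difference of the 11 was -0.04.

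Enzymes that make and recycle glutathione had 1 gene that rose and 16 that did not pass among 17 tested, and with the block 1 rose and 1 fell. The shares of all probe sets tested that passed were 1.17% without the block and 6.47% with it. Glutaredoxin, Glrx, which uses glutathione to reduce protein disulfides, had 3273, 3224 and 2752 in LIGHT Tg, against 1808, 1519 and 1502 in WT. It rose by 0.94 ± 0.152 (limma adjusted p = 0.0401, and 0.00488 with the block). Gclm, the modifier subunit of the rate-limiting enzyme of glutathione synthesis, had 1839.7, 3046 and 2181 in LIGHT Tg, against 3333, 4016 and 4614 in WT, with no overlap. It fell by 0.78 ± 0.144 in the blocked fit (limma adjusted p = 0.0241, and 0.21 without the block). Cth, which supplies cysteine, had -0.58 ± 0.233 (limma adjusted p = 0.411, and 0.0951 with the block), and Ahcy, which splits S-adenosylhomocysteine, had -0.29 ± 0.112 (limma adjusted p = 0.39, and 0.0825 with the block).

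Among 9 tested genes of conjugate export and mercapturate formation 1 fell, with and without the block. Of all probe sets tested 3.21% fell with the block and 0.457% without it. The basolateral conjugate pump gene Abcc3 had 408, 484 and 644 in LIGHT Tg, against 1514, 1821 and 1662 in WT. It fell by 1.72 ± 0.211 (limma adjusted p = 0.0169, and 0.00203 with the block). Another pump gene, Abcc4, had 529, 299 and 276 in LIGHT Tg, against 139, 186 and 205 in WT, a log2 difference of 1.01 ± 0.321 (limma adjusted p = 0.271, and 0.0944 with the block). The aminoacylase genes Acy1 and Acy3 had -0.51 ± 0.223 and 0.23 ± 0.195, with limma adjusted p-values of 0.193 and 0.317 with the block. The median log2 difference of the 9 was -0.02. Of 16 tested targets of Nrf2 none passed over 6 arrays (1.17% of all tested did), and with the block only Gclm did (6.47% of all). The NADPH-forming enzyme genes Me1 and Pgd had log2 differences of -0.79 ± 0.338 and 0.69 ± 0.289, and Osgin1 had 0.84 ± 0.43. Their limma adjusted p-values with the block were 0.0592, 0.0753 and 0.0906. The median of the 16 was 0.05, 0.41 within the pair and -0.05 within the other 4 arrays.

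Of 17 regulators of xenobiotic genes 1 fell over 6 arrays, and with the block 1 rose and 3 fell. Among all probe sets tested 0.457% fell over 6 arrays, and with the block 3.26% rose and 3.21% fell. Nfe2l2, which encodes Nrf2, had 3986, 3744 and 4052 in LIGHT Tg, against 2513, 2608 and 3082 in WT. It rose by 0.53 ± 0.11 in the blocked fit (limma adjusted p = 0.0358, and 0.163 without the block). The gene of CAR, Nr1i3, had 1258, 1638 and 890.0 in LIGHT Tg, against 2075, 2413 and 2282 in WT, a log2 difference of -0.88 ± 0.235 (limma adjusted p = 0.181, and 0.063 with the block). The bile acid receptor gene Nr1h4 had 1783, 1131 and 1209 in LIGHT Tg, against 2944, 3554 and 3329.8 in WT, and fell by 1.28 ± 0.206 (limma adjusted p = 0.0393, and 0.00933 with the block). Every LIGHT Tg array was below every WT array at both receptor genes. Bcl6, a repressor that is higher in male liver, had 187, 315 and 335 in LIGHT Tg, against 586, 779 and 1235 in WT. Bcl6 fell by 1.61 ± 0.192 in the blocked fit (limma adjusted p = 0.00543, and 0.0965 without the block). Irrespective of genotype, Bcl6 was lower in the pair than in the other arrays (log2 difference -0.77, limma adjusted p = 0.0314). The third that fell with the block, Cebpb, an acute-phase and liver transcription factor gene, had -0.50 ± 0.11 (limma adjusted p = 0.0447, and 0.354 without the block), and was named after its values were seen. The median of the 17 was -0.25.

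**Figure D4:**
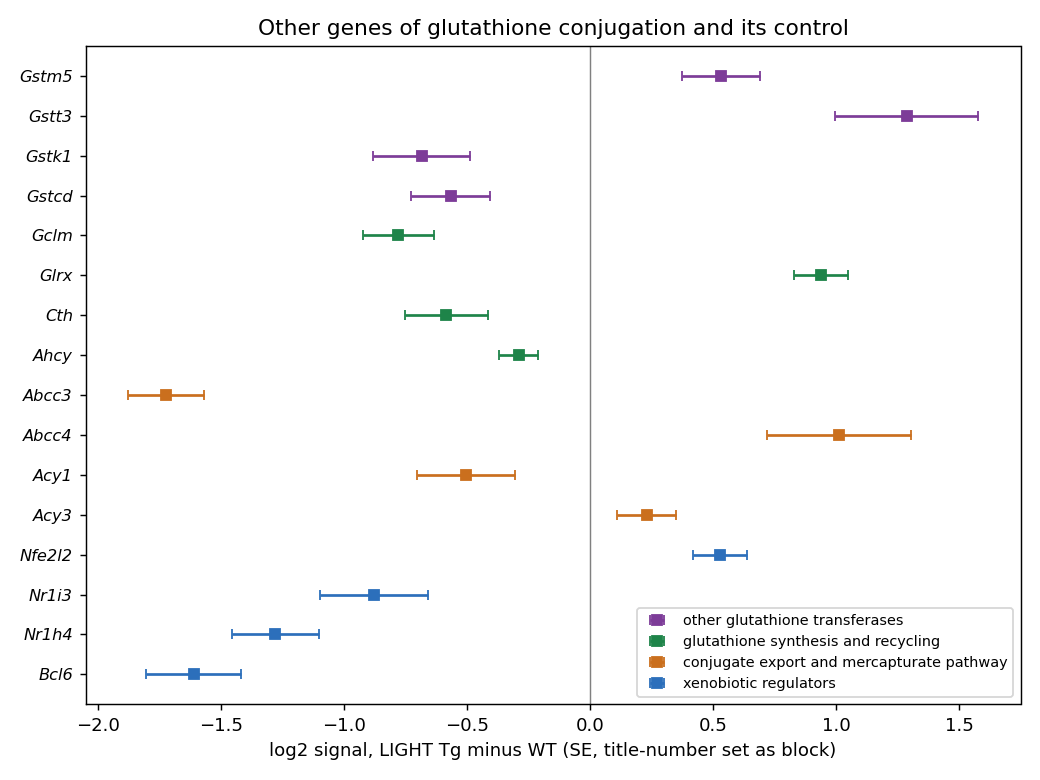
log2 difference, LIGHT Tg minus WT, with its SE from the fit with the title-number set as a block, for up to 4 genes from each of 4 lists related to glutathione conjugation. Glrx, Gstt3 and Nfe2l2 lie to the right of 0 and Abcc3, Bcl6, Nr1h4 and Gclm to the left, all past 5% FDR in that fit.

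In the fit without the block Gstm2 had the largest moderated statistic of the 15 probe sets that name 1 gene, though it did not pass there. The 5 genes whose log2 signals over the 6 arrays were most like it were Ptp4a3, Dhrs7b, Abcc4, Sema4d and Lysmd2, with Pearson's r between 0.991 and 0.995, as a description over 6 arrays that share the genotype and title-number groups. Members left out, they are the highest of the tested probe sets with 1 symbol, which number 19217 with the members counted. Their log2 differences lay between 0.54 and 1.71, and of these only Lysmd2 passed with the block (limma adjusted p = 0.026, and 0.0781 without it).

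In whole liver, fewer cells of a type and less RNA per cell cannot be told apart. Marker counts here stand beside 1.17% of all probe sets tested that passed without the block and 6.47% with it. Hepatocyte markers summed to between 120522 and 135307 in LIGHT Tg and between 123106 and 132795 in WT over 8 genes. None of the 8 passed over 6 arrays, and with the block Asgr1 rose by 0.57 ± 0.0813 (limma adjusted p = 0.0102). Bile duct markers summed to between 3152 and 7313 in LIGHT Tg and between 1295 and 6626 in WT over 7 genes. Of these Krt19, Krt7, Sox9 and Cftr were below the signal filter and Prom1 was higher in LIGHT Tg (log2 difference 4.20 ± 0.483, limma adjusted p = 0.0134). The other tested bile duct markers did not pass, Epcam with -0.55 ± 1.21 and Cd24a with 0.10 ± 0.418 (limma adjusted p = 0.957 and 0.983). Endothelial markers had 2 of 10 that rose, Vwf by 2.39 ± 0.229 and Lyve1 by 1.24 ± 0.2 (limma adjusted p = 0.00678 and 0.0393), and Stab2 rose too with the block, with sums of 13943 to 16753 in LIGHT Tg and 10662 to 11525 in WT. None of 10 Kupffer cell and 10 stellate cell markers passed, with and without the block, and of 3 T and B cell markers tested Ighm rose by 3.62 ± 0.208 (limma adjusted p = 0.000821). The others, Ms4a1 with -0.19 ± 0.228 and Cd8a with 0.12 ± 0.168, did not pass (limma adjusted p = 0.891 and 0.908). Cd3e, Cd3g, Cd4, Cd8b1, Cd79a and Cd79b were below the signal filter, and the T and B cell sums were 5397 to 7147 in LIGHT Tg and 1666 to 1820 in WT over 9 genes. Ighm alone had 5978, 3872 and 4375 in LIGHT Tg, against 399, 414 and 330.4 in WT, most of the gap between these sums. The part of these cell types in the glutathione transferase differences was not tested.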

How the data were processed

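Liver RNA of 3 LIGHT Tg and 3 WT samples was measured on 1 array each. The values are the authors' deposited MAS5 intensity, 1 linear signal per probe set. Per the submitters' processing notes the tool was MAS5. Version, scaling target and detection calls were not found in the labels. Trimmed means (2% off each end) lay between 490.0 and 505.1, from which scaling to a common target is read. Totals lay between 30979284 and 32707197. The number of arrays limits the precision.

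Signals below 1 were set to 1 and log2 was taken. After leaving out 64 control probe sets, 22519 of 45037 reached the median of the mean log2 signals, 7.39 or a linear signal of 167.4, and were tested. Symbols came from the platform annotation: 34945 probe sets had 1, 932 several and 9160 none, and comparison with RefSeq changed 0 of them. Coordinates are given only for RefSeq promoter windows. limma 3.58.1 (R 4.3.3) was used with lmFit, eBayes and a variance trend, two-sided, with Benjamini-Hochberg adjustment over all tested probe sets. Calls are from the fit without a block unless stated. The title-number set (77 and 78, or 30 to 35) as a block, its interaction with genotype, and the arrays titled 30 to 35 alone are given where named. With 3 arrays a group, the smallest exact permutation p is 0.1.

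Members and lists were chosen with earlier results of these data known. Named genes were all member probe sets, up to 4 per list by moderated statistic among tested genes (each gene through its brightest probe set with 1 symbol), and the 5 genes most like the leading member. Not every marker so taken is given. Over 10 simulations on 22519 probe sets, with 200 changed, 5.4% of 2-fold and 47.2% of 4-fold changes were recovered without the block. With the block 36.7% and 81.8% were recovered. The simulated signals had a set difference, the spread of the blocked fit and the same genotype difference in both sets. That setting favours the blocked fit, so the recoveries cannot say which fit suits these data. Alternatives were no filter, a stricter filter, an offset of 37.5 before log2, quantile normalization, a common median, eBayes without trend or with robust fitting, array weights, each array left out, and the mean over a gene's probe sets. matplotlib 3.10.9 under Python 3.11.15 drew the figures.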

Additional observations from a re-analysis of the deposited data

Results flagged for a closer look

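The LIGHT Tg minus WT difference of Gstm3 at 1427474_s_at was larger in the arrays titled 77 and 78 than in those titled 30 to 35 by 2.06 ± 0.177 on the log2 scale (limma interaction, adjusted p = 0.0438). Signals were 8774 in LIGHT Tg 1 and 1564 in WT 1, against 5318 and 4951 in LIGHT Tg 2 and 3 and 3751 and 3859.8 in WT 2 and 3. The pair holds 1 array per genotype, so it has no spread of its own and the test assumes that of the other 4 arrays. The difference between sets did not pass with no filter on low signals or after quantile normalization. Probes of this s_at probe set can also bind transcripts of paralogs, and the other Gstm3 probe set, 1427473_at, did not pass.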

How the results depend on the processing

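No paired analysis was possible because the genotypes share no replicate number in the labels to match single samples. The block is the title-number set, which holds 1 or 2 arrays of each genotype. Alternatives that moved the counts were these. Of all probe sets, 264 passed over 6 arrays, 148 without the variance trend, 1992 with array weights, 1457 with the title-number block and 956 in the arrays titled 30 to 35 alone. Leaving out 1 array gave between 43 and 306 without the block and 970, 643, 467 and 598 with it, without LIGHT Tg 2, LIGHT Tg 3, WT 2 and WT 3. Leaving out LIGHT Tg 1 or WT 1 with the block was not run, since the pair would hold 1 genotype. Of the 16 glutathione transferase probe sets, 0 passed over 6 arrays (limma, 7 at an unadjusted p below 0.05). With array weights, with the block, and in the arrays titled 30 to 35 alone 2 passed each time, Gstm2 and Gstt1. Leaving out 1 array gave 0 without the block and with it 1 without LIGHT Tg 2 or LIGHT Tg 3 (Gstt1) and 0 without WT 2 or WT 3. Of the genes on the other lists 7 passed, 4 with no filter, 4 without the trend, 21 with array weights, 14 with the block and 16 in the arrays titled 30 to 35 alone. The shares of all probe sets tested were 1.17% over 6 arrays, 6.47% with the block and 4.25% in the arrays titled 30 to 35 alone. Leaving out 1 array gave between 2 and 8, and with the block between 9 and 14. The median log2 difference of the 16, 0.15 over 6 arrays, lay between -0.15 and 0.37 with 1 array left out and was lowest without LIGHT Tg 1. The interaction count was 1, and 0 with no filter or quantile normalization.

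Signs turned for 3 Gstm1 probe sets, Gsta4 and Gstp1, none of them called over 6 arrays. With array weights 1416416_x_at of Gstm1 had -0.21, 1425626_at -0.041 and 1448330_at -0.26, and Gstp1 had 0.035. In the arrays titled 30 to 35 alone these were -0.26, -0.14, -0.32 and 0.047, and Gsta4 had -0.23. Leaving out 1 array gave ranges of -0.17 to 0.22 for 1416416_x_at, -0.12 to 0.49 for 1425626_at, -0.21 to 0.17 for 1448330_at, -0.33 to 0.42 for Gsta4 and -0.22 to 0.16 for Gstp1. With the block Gsta4 had -0.049 without LIGHT Tg 2 and -0.17 without WT 3, and Gstp1 had 0.017 without LIGHT Tg 2. Of 327 values for the members under alternatives, 298 kept direction and side of the threshold, 8 passed it and 21 turned. The causes were not tested. No detection calls were used, so signal over background is unknown.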
